A study of Mus musculus with 4 samples.

Results

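The departure from additivity compares how the mammary gland answered GW501516, a synthetic ligand that activates the nuclear receptor PPARδ, in 2 genotypes of female nulliparous FVB mice: wild-type littermates and mice with an MMTV-PPARd transgene. It is the log2 difference between GW501516 chow and standard chow in transgenic mice minus the same difference in wild type, which equals the genotype difference on GW501516 minus that on chow. All 4 arrays of the study enter it, one per group: wild type on chow, transgenic on chow, wild type on GW501516 and transgenic on GW501516 for 1 week. Values are given in this order of arrays below. The chow held 0.005% GW501516 going by the source names and 0.001% going by a treatment tag, a conflict that the values do not settle. The mouse mammary tumour virus promoter is active mainly in epithelium, of the mammary gland and of some other organs, so the added receptor is not expected to be spread evenly over the tissue's cell types. The age of the mice is not given in the labels used here, and the controls differ from the other groups in genotype or diet alone as far as the labels say. Each array carries RNA pooled from 5 mice, so the differences have no replicate check and no test, and all values describe these pools.

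Each value is the deposited intensity of a probe set, not on a log scale. Intensities below the 25th percentile of all values, the floor, were raised to it, and a gene was kept where its probe set with the highest mean reached the median of all values on at least 1 array, which held for 7836 of 12394 named genes (12482 of 22690 probe sets). A departure of 0 means that the level under transgene and agonist together is the product of the levels under each alone, divided by the wild-type chow level. A departure above 0 means a level above that product, and one below 0 a level below it. Where arrays at the floor all push the departure the same way it is a bound, written as "at least" or "at most", and where they push both ways no departure is given, though such genes stay in the counts. A bound holds for this floor and scaling, and can be smaller under others.

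PPARδ binds fatty acids and their derivatives, pairs with the retinoid X receptors and switches on genes of fatty acid transport, oxidation and storage. Ligand changes which cofactors the receptor holds, so that receptor dose and ligand can act on one gene in more than a simple product. In the mammary gland, luminal cells become milk-secreting alveolar cells under prolactin, whose signal runs through STAT5, while progesterone acts through paracrine factors such as RANK ligand, WNT4 and R-spondin 1.

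Ppard, the transgene's gene, was below the floor in both wild-type pools (2.1 and 1.5) and read 1943 in transgenic mice on chow and 4224 on GW501516. Its transgenic reading was therefore itself higher on agonist, by 1.12 on the log2 scale, from 1 pool per diet. The lower reading came from the transgenic chow array, whose controls also differed, as described below. An equal receptor dose across diets therefore cannot be assumed, and the dose itself was not tested. As markers of the tissue's main parts, the milk genes described below were measured, the epithelial keratin Krt8 read 6057, 5932, 5613 and 8266, and the adipocyte hormone Adipoq 13888, 9984, 14186 and 15056. These last 2 are not particular to mammary tissue, and genes typical of other tissues were measured too: skeletal muscle genes had a median of 4691 and 4029.8 on the agonist arrays, and salivary genes one of 447.2 in wild type on GW501516.

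Most genes followed the product. The departure was within 1.5-fold for 5801 genes (74.0%), its median was 0.0056 and its middle 95% ran from -1.43 to 1.25. It was at least 2-fold higher for 347 genes, 4.43% of those kept, and at least 2-fold lower for 411, 5.25%, against which each gene group below is read. Of these 758 genes, 687 were above the floor on all arrays, 30 had a bound and 41 had no departure that could be given. At 4-fold the lower side was the longer one, with 93 genes against 41. The higher side held 45.8% of the 2-fold genes, and 55.9% once each array was moved to a common median.

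**Figure D1:**
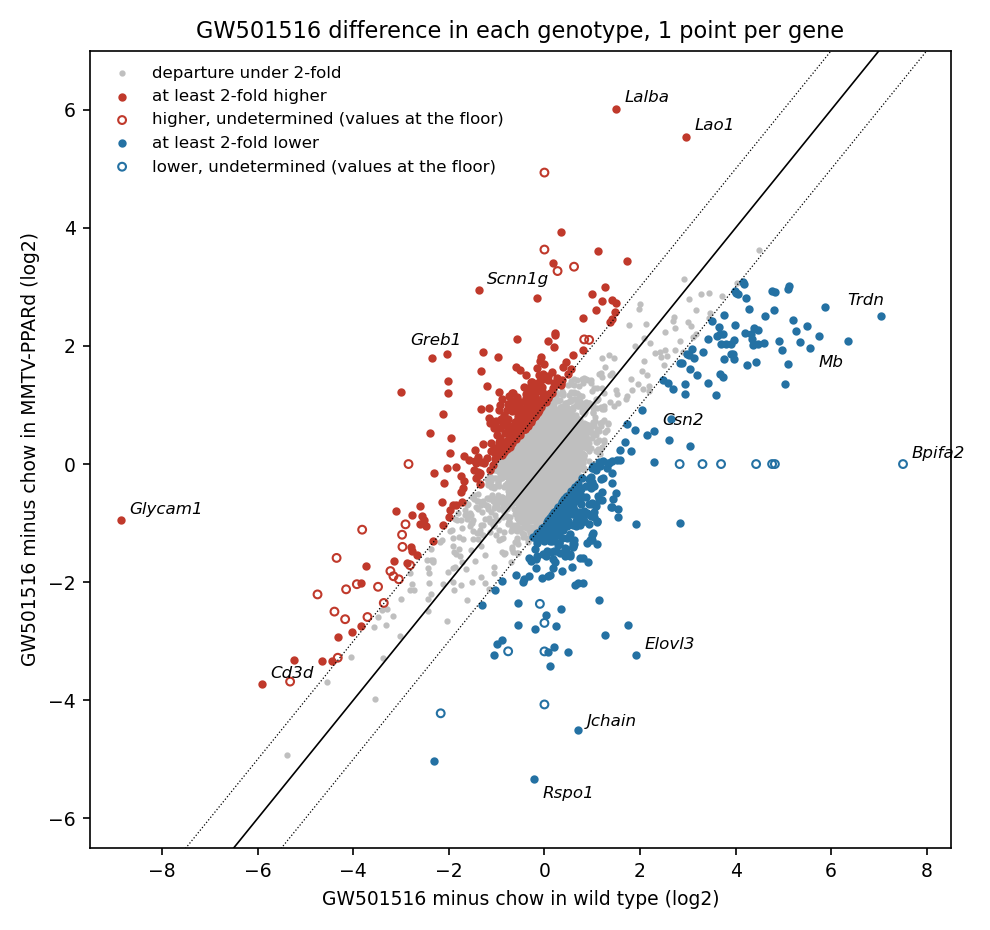
Each point is 1 of 7836 genes, with its GW501516 difference in wild type on the x axis and in MMTV-PPARd mice on the y axis (log2). The solid line marks no departure and the dotted lines a departure of 2-fold. Red points above the lines (347) depart upward and blue points below them (411) downward, and open points have arrays at the floor that leave the departure undetermined.

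The genotypes differed more on chow than on agonist for 555 of the 758 genes, and more on agonist for 203. Over all 7836 genes kept the genotype difference was also wider on chow, with an SD of 0.67 (log2) against 0.54 on agonist. The 758 genes were chosen by the gap between these 2 differences. The GW501516 difference was larger in transgenic mice for 443 of them and in wild type for 315. For 327 genes the pools differed at least 2-fold by genotype on chow and less than 1.5-fold on GW501516, and for 86 the reverse held. A single array stood apart from the other 3 for 161 genes (21.2%), meaning that it lay at least 2-fold beyond each of them while they lay within 2-fold of each other. That array was the transgenic chow array for 71 genes, wild type on chow for 45, transgenic on GW501516 for 28 and wild type on GW501516 for 17. These counts were not taken over all genes kept, so they are not read as particular to the departing genes.

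The transgenic chow array also differed in its controls. The bacterial spike BioB read 19.3 to 34.2 over its 3 probe sets there and 280.5 to 519.0 on the other arrays. The other spikes were lower there by less, such as BioC-3 with 746.3 against 1024.6 to 1245.7 and CreX-3 with 7134.5 against 9717.4 to 11058.1. Gapdh, by the control probe set for its 5' end, read 3572 against 8730.0, 12274 and 10269. The trimmed means of the arrays lay between 500.168 and 500.201. The highest intensity was 14308.6 on the transgenic chow array and 19396.4, 21519.6 and 21072 on the others. Some lists of bright genes were lower there too. The summed intensity of fibroblast and matrix genes was 76702 there and 106057 to 116830 elsewhere, and that of ribosomal protein genes 143344 against 160526 to 166676. The transgenic chow array enters every departure with a minus sign, and its part in the counts was not tested.

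**Figure D2:**
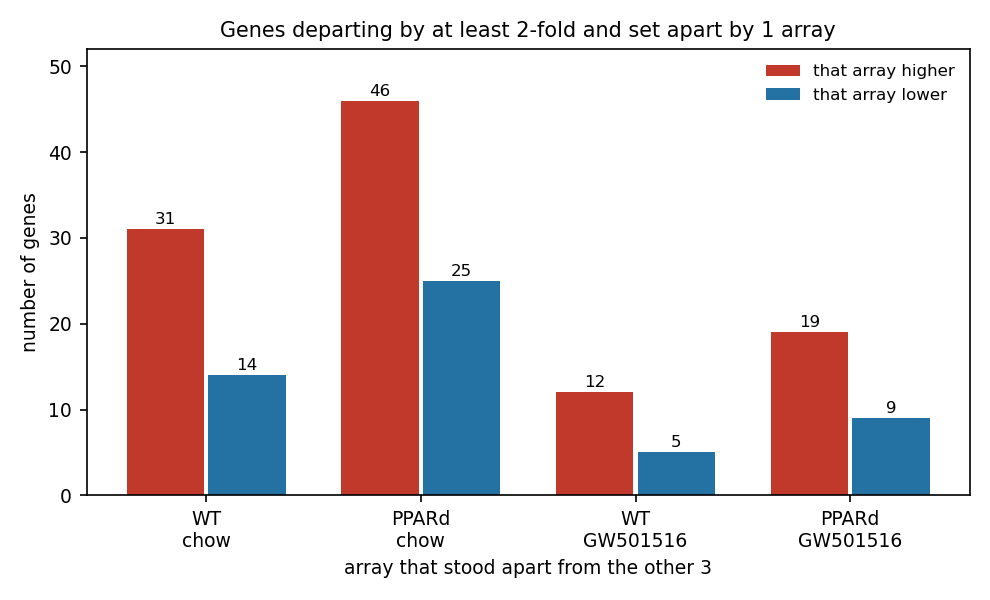
Bars count the genes departing by at least 2-fold for which 1 array stood apart from the other 3, by array (x axis) and by whether it was the higher (red) or the lower one (blue). The transgenic chow array accounts for 46 and 25 genes, more than any other array.

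Milk genes departed in both directions, upward for several whey proteins and κ-casein and downward for the calcium-sensitive caseins. Of 16 measured milk protein genes, 10 departed upward and 4 downward by at least 2-fold, with a median of 1.20 against 0.0056 over all genes kept, or 1.09 over the 14 with a value or bound. Lalba, the α-lactalbumin that turns galactosyltransferase into lactose synthase, read 624.5, 159, 1768 and 10325. Its reading was lower with the transgene alone and higher with the agonist alone, the product of these is 450.1 and the combined array stood 22.9-fold above it (departure 4.52). Lao1, an L-amino acid oxidase of milk, read 92.5, 221.2, 718.6 and 10319 (departure 2.59), and Ltf, the iron-binding lactoferrin, 679.6, 426.6, 1482 and 5185 (2.48). These 3 genes were highest where transgene and agonist met. Wap, the whey acidic protein, followed with 29.8, 1098, 98.6 and 11881 and a departure of 1.71. Folr1, a folate receptor, departed by 1.53, and Csn3, the κ-casein that caps the casein micelle, by 1.06. In whole tissue, fewer cells of a type and less RNA per cell cannot be told apart, here and for every gene group below.

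The calcium-sensitive caseins departed the other way. Csn2 (β-casein) read 2258, 10562, 11104 and 15562, so that either factor alone went with more than 4-fold higher readings and both together added little (departure -1.74). Csn1s1 (αs1-casein) read 2489.7, 13145, 8302 and 21047 (-1.06). Csn1s2a (αs2-casein) read 3215, 14140.0, 11884 and 21072 (-1.31), but its other probe sets had a median departure of 0.19 and its mean over probe sets was -0.45. For all of these the product of the single effects, 51935, 43833 and 52269, lies above the highest intensity on any array, 21519.6. That was so for 19 of the genes kept, 17 of which departed downward by at least 2-fold, and the part of the arrays' upper range in these departures was not tested. Muc15, a mucin of the milk fat globule, departed by -1.73 with a product of 14859, within the range.

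**Figure D3:**
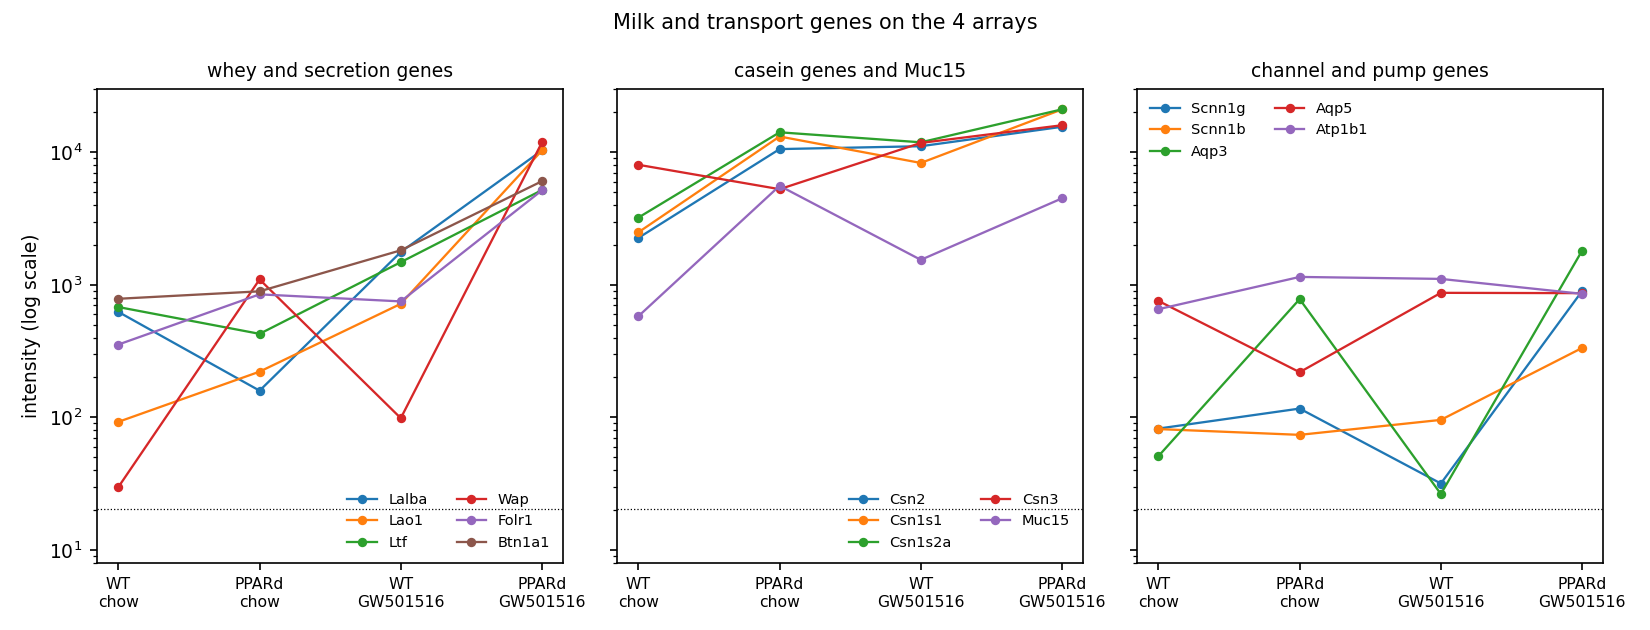
Intensities (log axis) of milk genes and of channel genes on the 4 arrays, with the floor as a dotted line. Lalba, Lao1, Ltf, Wap, Folr1 and Btn1a1 are highest on the array with transgene and agonist, while Csn2 reads 10562 to 15562 on 3 arrays and 2258 on wild-type chow.

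The promoters of the casein, whey and milk enzyme genes singled out by their departures are shown because these genes share a tissue and a hormone but departed in opposite directions. Each is the 250 bases upstream of the RefSeq start in GRCm38.p6, written in the direction of transcription, and capitals mark matches to TTCNNNGAA, the letters that STAT5 dimers recognise. The motif reads alike on both strands.
Csn2, chr5:87699426-87699675, minus strand: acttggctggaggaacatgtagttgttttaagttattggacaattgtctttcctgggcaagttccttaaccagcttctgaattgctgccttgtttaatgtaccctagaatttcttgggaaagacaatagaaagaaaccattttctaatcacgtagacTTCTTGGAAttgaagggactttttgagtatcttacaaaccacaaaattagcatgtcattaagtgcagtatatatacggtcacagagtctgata
Csn1s2a, chr5:87774200-87774449, plus strand: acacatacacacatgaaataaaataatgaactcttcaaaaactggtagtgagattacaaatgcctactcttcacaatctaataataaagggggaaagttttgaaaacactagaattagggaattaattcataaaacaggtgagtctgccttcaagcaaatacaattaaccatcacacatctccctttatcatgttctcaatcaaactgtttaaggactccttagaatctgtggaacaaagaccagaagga
Lalba, chr15:98482684-98482933, minus strand: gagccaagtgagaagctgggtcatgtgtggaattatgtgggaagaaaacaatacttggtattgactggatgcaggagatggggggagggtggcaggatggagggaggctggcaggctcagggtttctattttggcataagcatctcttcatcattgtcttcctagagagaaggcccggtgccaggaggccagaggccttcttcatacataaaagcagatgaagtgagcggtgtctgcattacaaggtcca
Lao1, chr4:118961717-118961966, plus strand: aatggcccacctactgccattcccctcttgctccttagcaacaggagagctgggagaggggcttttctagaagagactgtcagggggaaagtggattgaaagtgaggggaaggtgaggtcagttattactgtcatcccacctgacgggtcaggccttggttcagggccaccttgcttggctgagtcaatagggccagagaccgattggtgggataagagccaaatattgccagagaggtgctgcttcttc
Ltf, chr9:111019042-111019291, plus strand: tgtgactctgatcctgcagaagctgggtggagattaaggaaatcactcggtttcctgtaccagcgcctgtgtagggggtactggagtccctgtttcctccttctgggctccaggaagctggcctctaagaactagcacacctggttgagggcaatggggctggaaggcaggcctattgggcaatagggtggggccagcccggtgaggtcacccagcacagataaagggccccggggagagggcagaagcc
Glycam1, chr15:103565082-103565331, minus strand: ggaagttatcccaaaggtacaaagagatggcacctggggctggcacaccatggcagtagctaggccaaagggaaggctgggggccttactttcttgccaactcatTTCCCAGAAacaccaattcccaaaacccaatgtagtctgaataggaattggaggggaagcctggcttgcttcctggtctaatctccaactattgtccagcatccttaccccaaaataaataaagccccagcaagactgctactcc
The motif occurs once in the Csn2 window, starting 93 bases before the start, and once in the Glycam1 window, starting 145 bases before it. It does not occur in these windows of Csn1s2a, Lalba, Lao1 and Ltf. Of 32851 windows of this length in the table, 7.02% hold it. Of the genes shown with it, Csn2 departed downward and Glycam1 upward, the latter through 1 low array. Whether the motif goes with direction was not tested, and 6 windows are too few to show it. A perfect direct repeat with 1 spacer base, AGGTCANAGGTCA on either strand, the idealised PPAR element, occurs in 11 windows of the table and in none of the 6 shown.

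Glycam1, a mucin-like whey protein that lymph node vessels also make, had the highest bound. It read 9535, 8128, 2.2 and 4207, low on 1 array alone, for a departure of at least 7.91 (6.12 at the lowest among the alternatives). Csn1s2b and Olah were at the floor in both wild-type pools, so no departure is given. On GW501516 in transgenic mice they read 1954 and 1912, against 63.8 and 154.1 on chow.

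Genes of milk fat secretion leaned upward with the whey genes. Of 19 measured, 17 were above 0, 5 of them at least 2-fold (1 of these, Olah, undetermined), and the median was 0.42. In the list's median the genotypes differed by -0.24 on chow and 0.16 on agonist. Btn1a1, the butyrophilin of the globule membrane, read 784.4, 892.9, 1821 and 6049.9 (departure 1.55), and Xdh, its partner in globule budding, 799.8, 867.6, 1017 and 2207 (1.00). Cidea, which enlarges lipid droplets, departed by 1.07, or 0.91 under quantile normalization, and Gpat4, a glycerol phosphate acyltransferase, by 1.05. The synthetic enzymes Fasn (0.051), Dgat1 (0.13) and Scd2 (-0.24) stayed within 2-fold of the product. Of 15 alveolar factors and prolactin signalling genes, 1 departed upward and 3 downward by at least 2-fold, and the median was -0.31. The lower ones were the epithelial factors Ehf (-1.83) and Tfap2c (-1.34) and Tnfsf11, which has no departure. The higher one was Socs2, an inhibitor of cytokine signalling (1.05, and 0.76 with the mean over probe sets). Stat5a departed by -0.023 and Elf5, the alveolar transcription factor, by -0.15, with readings of 882.3, 4920.3, 1295 and 6524.

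Several sodium and water channel genes departed upward. Of 11 channel and pump genes, 4 departed upward by at least 2-fold and 1 downward, with a median of 0.48. Scnn1g, the γ subunit of the epithelial sodium channel, read 82.3, 116.5, 31.7 and 896.5, lower with agonist in wild type and higher with it in transgenic mice (departure 4.32). Its β subunit Scnn1b read 81.6, 73.8, 95.7 and 333.9 (1.95), high on the combined array alone. Aqp3, a water and glycerol channel, read 51, 780, 26.4 and 1808 (2.16, and 1.21 at the lowest among the alternatives), so it was already higher in transgenic mice on chow. Aqp5, a water channel of secretory and ductal epithelium, departed by 1.78 through a single array: it read 219.1 on the transgenic chow array and 755.9 to 869.8 elsewhere. Atp1b1, a subunit of the sodium pump, departed downward (-1.18).

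A set of genes was high on the combined array alone, the other 3 arrays lying within 2-fold of each other. Tc2n, a C2-domain protein, read 23.7, 46.9, 26.9 and 499.4, and its second probe set departed by 3.13 against 3.23. Nucb2, the precursor of nesfatin, read 570.7, 787.3, 603.6 and 3354 (2.01), and Dkkl1, a protein related to the Dickkopf family, 185.9, 101.5, 168 and 716.4 (2.97). Fewer genes were low there alone: Bmp2, a bone morphogenetic protein, read 165.8, 114.7, 146.3 and 37.7 (-1.42, and -0.51 with the floor at the 40th percentile). Mtch2 and Cox15 were also chosen for this pattern, but their other probe sets departed by 0.15 and -0.22.

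WNT pathway genes leaned downward, and the 4 with the lowest departures were highest on the transgenic chow array. Of 15 WNT pathway genes, 5 departed downward by at least 2-fold and 0 upward, and 3 were above 0 (median -0.53). Rspo1, the secreted R-spondin that amplifies WNT signals, read 67.8, 1604, 58.4 and 39.7, so that the agonist went with a return to the wild-type level (departure -5.12). Wnt5b read 88.9, 285.5, 113.8 and 51.8 (-2.82, second probe set -2.86), and Wif1, a WNT inhibitor, 152.8, 956, 173.7 and 391.5 (-1.47). Tnfsf11, the RANK ligand, read 92.3, 382.4, 10.1 and 0.7, below the floor on both agonist arrays, so it has no departure. Axin2, a common read-out of WNT signalling, departed by -0.53.

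Among hormone response genes both directions occurred, with 3 of 10 upward and 4 downward by at least 2-fold. Greb1, an estrogen-induced gene, read 149.1, 15.9, 29.0 and 71.5 (at least 4.16, but 1.08 at the lowest among the alternatives). Only its wild-type chow value reached the median used as the filter. Each factor alone went with a low level, and both together with less of a loss than the product. Cited1, a cofactor of estrogen receptor signalling, read 679.5, 996.8, 1593 and 843.1 (-1.47).

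Connexin and claudin genes leaned downward, several of them only slightly. None of the 10 measured connexins and claudins departed above 0 (0 of 10), and 3 departed downward by at least 2-fold. Departures were small for Cldn5 (-0.25), Gja1 (-0.19), Cldn4 (-0.14), Cldn10 (-0.12) and Cldn1 (-0.05). Not all members are particular to epithelium, and Cldn5 is also among the endothelial markers. Gjb6 (connexin 30) read 10.5, 1326, 22.1 and 123.3 (at most -3.54) and Gjb2 (connexin 26) 50.4, 1729.7, 72.8 and 603 (-2.05). Both stayed above wild type on agonist, at a smaller distance than on chow. Cdh1, E-cadherin of epithelial adherens junctions, read 454.1, 1829, 912.1 and 814.6 (-2.17). Ehf, an epithelial ETS factor, departed by -1.83 with -2.06 in its other probe sets, Trp63, the basal transcription factor, by -1.72 and Krt5 by -1.33. Of the 13 basal and myoepithelial markers, 9 lay within 2-fold of the product, 3 departed downward and 1 upward, with a median of -0.19. The luminal keratins Krt8 (0.59) and Krt18 (0.098) stayed within 2-fold of the product, and of the 16 luminal markers 3 departed downward by at least 2-fold and 0 upward. Lamb3, a laminin chain of the epithelial basement membrane, went the other way with 109.8, 298.5, 149.9 and 987.5 (1.28).

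Immediate early genes, which respond within minutes to growth factors and to tissue handling, leaned downward. Of 16, 5 were at least 2-fold lower and 0 higher, with a median of -0.50. Fos read 394, 2802, 1486 and 1394 (-2.92), Egr1 1217, 4410.3, 1628 and 1639 (-1.85) and Myc 481.9, 1540.2, 431.9 and 521.9 (-1.40). On agonist the genotypes lay within 1.5-fold of each other for each of these, and on chow more than 2-fold apart.

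The IgA genes were high in the transgenic chow pool. Jchain, the joining chain of polymeric IgA, read 68.9, 5161, 112.4 and 227 (-5.21), the lowest departure among genes above the floor on all arrays. Igha, the IgA constant region, read 229.4, 6955, 502.6 and 1409 (-3.44, and -3.90 in its other probe sets). The plasma cell genes Irf4 (0.32), Xbp1 (0.58) and Sdc1 (0.038) stayed within 2-fold. Pigr, which carries IgA into milk, was below the floor in wild type on chow and read 489.5, 36.5 and 2115 on the other arrays.

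PPAR target genes followed the product closely. Of 23 measured, 1 departed upward and 1 downward by at least 2-fold, and the median was 0.024, negative under quantile normalization (-0.14) among other settings. Pdk4, which restrains pyruvate oxidation, read 4172, 4059.7, 5446 and 3719 (-0.51), and Angptl4, an inhibitor of lipoprotein lipase, 4852, 4835, 4556 and 6285 (0.47). Plin2, the lipid droplet coat protein, departed by 0.34. Fabp3, a fatty acid binding protein, read 884.2, 4160.2, 2436 and 14533, higher with either factor and highest with both, which is close to the product (0.34). Acaa1b, a peroxisomal thiolase, was higher with either factor too (-0.51).

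The 2 exceptions were Vnn1 and Acot1. Vnn1, a pantetheinase, read 609.7, 288.3, 337.1 and 514.2 (1.69), lower with either factor than with both or none. Acot1, an acyl-CoA thioesterase, read 656.7, 4503, 972.6 and 2494 (-1.42). Cpt1a departed by -0.26, but its other probe set by -1.31. None of the 19 mitochondrial fatty acid oxidation genes departed by 2-fold, and their median of 0.024 was negative under quantile normalization. This list shares genes such as Hadha and Slc25a20 with the PPAR targets, so the 2 medians are not separate results. The retinoid X receptor Rxra departed by 0.65.

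The elongases of fatty acids departed in both directions, with the greatest departures downward. Elovl3, an elongase of very long chains found in brown fat and sebaceous cells, read 95.3, 839, 359.7 and 89.2, higher with either factor and back at the control level with both (-5.15). Elovl6, the elongase of palmitate, read 1877, 2699, 4315 and 1779.6 (-1.80, second probe set -2.24), and Elovl7 departed by -1.45. Elovl1 (0.76) and Elovl5 (0.66) lay above the product, by less than 2-fold. Of the 21 genes of elongation, desaturation and lipogenesis, 4 departed downward and 0 upward by at least 2-fold, while 13 were above 0 and the median was 0.11. The fourth of the lower genes, Fads2, lay within 2-fold with quantile normalization (-0.95), and its other probe set was at 0.13. Some brown fat genes departed downward too: Ucp1, the uncoupling protein, read 3316, 4658, 5046 and 2264 (-1.65), and 3 of 10 brown adipocyte genes departed downward by at least 2-fold against 1 upward, Cidea. Of 13 cholesterol synthesis genes 10 were below 0, with a median of -0.51 and Sc5d, a sterol desaturase, at -1.39. White adipocyte markers had a median of 0.27 and none departed by 2-fold. In their median the genotypes differed by -0.46 on chow and -0.29 on agonist.

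**Figure D4:**
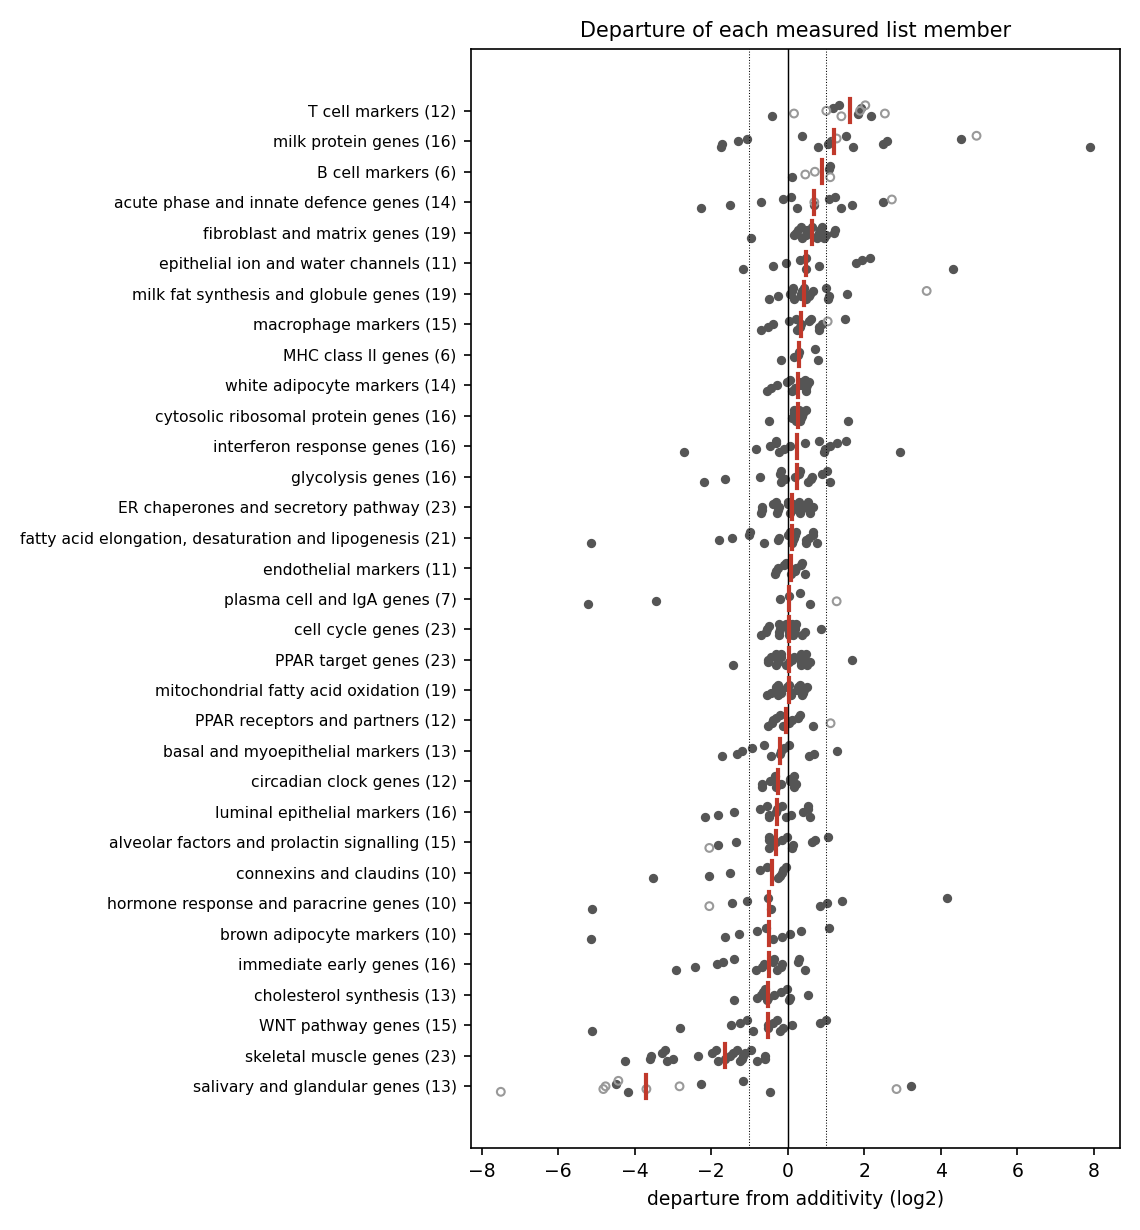
Departure (log2, x axis) of each measured member of 33 gene lists with at least 6 measured genes, whose number is given in brackets. Open circles are genes whose departure is undetermined because of arrays at the floor, red bars are medians and dotted lines mark 2-fold. T cell markers (median 1.62) and milk protein genes (1.20) lie at the upper end, and skeletal muscle (-1.63) and salivary genes (-3.70) at the lower end.

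Skeletal muscle genes departed downward as a block. All 23 measured were below 0, 19 by at least 2-fold, with a median of -1.63. Myh1, a fast myosin heavy chain, read 168.9, 1194, 9835 and 7544 (-3.20), and Mb, myoglobin, 85.6, 912.8, 4056 and 3548 (-3.61). Trdn, triadin of the calcium release complex, departed by -4.52, and by -3.88 to -0.66 in its other probe sets. The median muscle intensity was 216.8, 912.8, 4691 and 4029.8, so the genotypes were apart on chow and close on agonist, in the list's median difference by 1.54 and -0.21. For 11 of the 19 the product lay above the highest intensity of any array. The muscle glycolytic isoforms Pgam2 (-2.20) and Eno3 (-1.65) went with them, while Gapdh (1.03) and the ubiquitous Pfkl (1.12) departed upward. With the mean over probe sets neither reached 2-fold (Gapdh 0.95, Pfkl 0.74), nor did Gapdh with quantile normalization (0.92), and Pfkl's other probe set was at 0.37.

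T cell genes departed the other way. Of 12 T cell markers, 10 departed upward by at least 2-fold and 0 downward. The median was 1.62, or 1.58 over the 6 with a value, of which 5 reached 2-fold. The other members were below the floor on an agonist array. Cd3d, a chain of the T cell receptor complex, read 1841, 533.1, 30.8 and 40.4 (2.18), and Cd2 534.9, 187.8, 37.2 and 46.5 (1.83). Both genes read under 50 on agonist in either genotype, from a chow level that was lower in transgenic mice, so the departure is mostly that gap on chow. The B cell antigen receptor chain Cd79b departed by 0.11 and the B cell lectin Cd22 by 1.09 (0.99 with the floor at the 40th percentile), in a list with 3 of 6 upward (3 with a value or bound). Coro1a, a coronin of leukocytes, was high on the wild-type chow array alone (3336 against 384.9 to 766.7), as were Arhgdib (2258) and Rnase2a (176.2).

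**Figure D5:**
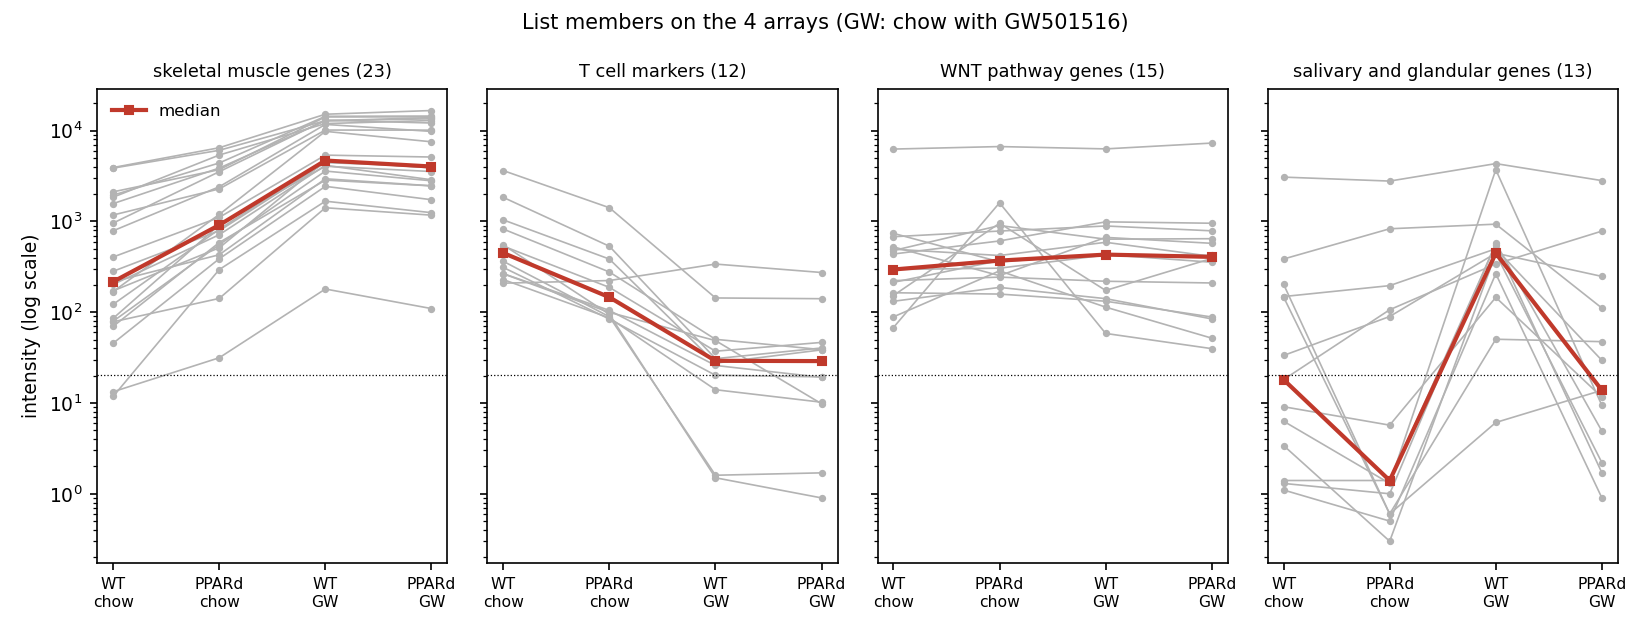
Intensities (log axis) of the measured members of 4 lists on the 4 arrays, 1 grey line per gene and the median in red, with the floor dotted. Muscle and T cell genes separate by genotype on chow and lie together on GW501516, the WNT median lies between 295.5 and 431.4 while Rspo1 reads 1604.5 on the transgenic chow array, and the salivary median is above the floor on 1 array.

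Most salivary and glandular genes were highest on the wild-type GW501516 array. Bpifa2, a secreted salivary protein, read 6.3, 1.3, 3719 and 9.4, Smr3a, a salivary peptide precursor, 3.4, 0.3, 441.7 and 2.2, and Dnase1, a secreted nuclease, 1.1, 0.5, 265.6 and 0.9. With 3 arrays below the floor none of these has a departure. Over the list, 10 of 13 were at least 2-fold lower, 4 of them with a value or bound, and 2 at least 2-fold higher. The latter were Prol1, which has no departure, and Dmbt1, a mucosal scavenger protein that read 203.4, 0.6, 50.4 and 47.4 (at least 3.22, but 1.52 at the lowest among the alternatives). Both were highest in wild type on chow. Fcgbp, a mucus-associated protein, read 148.8, 196.3, 500.2 and 29.5 (-4.48) and Clca3a2 385.6, 830.6, 933.4 and 111.1 (-4.18), lower in the combined pool than anywhere else. The part of muscle, lymphoid and salivary tissue in the departures of other genes was not tested.

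Matrix, macrophage and acute phase genes leaned upward by their list medians, and interferon response genes went both ways. Fibroblast and matrix genes were above 0 in 18 of 19, 3 by at least 2-fold (median 0.64), with Col6a3 at 4862, 2096, 3647 and 3735 (1.25), low on the transgenic chow array. In the matrix list's median the genotypes differed by -0.72 on chow and -0.16 on agonist, and the part of that array was not tested. Macrophage markers had a median of 0.35, and Fcgr1, an IgG receptor, departed by 1.51. Among interferon response genes Ido1, which degrades tryptophan, read 718.3, 47.4, 135.9 and 68.1 (2.92) and Ubd, a ubiquitin-like modifier, 217.2, 1864, 43.8 and 57.1 (-2.72), in opposite directions. Over that list 9 of 16 were above 0, against 50.5% of all genes kept. In it 4 departed upward and 1 downward by at least 2-fold, and the median of 0.25 was -0.02 with the stricter filter. Lrg1, an acute-phase glycoprotein, read 4624, 699.2, 2345 and 2462 (2.80). Of the 14 acute phase and defence genes, 6 departed upward and 2 downward by at least 2-fold. Their median was 0.69, or 0.46 over the 12 with a value or bound, and 0.16 at the lowest among the alternatives.

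In other groups nearly all genes lay within 2-fold of the product. Cell cycle genes, which were higher in transgenic mice on chow and on agonist (median differences of 0.89 and 0.87), had a median departure of 0.03, and none of 23 departed by 2-fold. The same count of 0 held for ER chaperone and secretory pathway genes (23 measured, median 0.12), for endothelial markers (11, 0.094) and for clock genes (12, -0.25). Ribosomal protein genes were above 0 in 15 of 16, 1 by at least 2-fold, with a median of 0.26, or -0.046 under quantile normalization. In that list's median the genotypes differed by -0.22 on chow and 0.086 on agonist.

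A gene's other probe sets gave the one measure of technical scatter in these data. Over 2536 genes with a further kept probe set, its departure differed from the first with an SD of 0.54 (log2), which holds no scatter between arrays. Among the 156 of them departing by at least 2-fold, the others had the same direction in 148 and also reached 2-fold in 76. Taken as plain differences of intensity, the departure kept its sign in 755 of the 758 genes, which were chosen for a large departure on the log scale. Smaller departures could change sign: Acaa1b (-0.51) and Elf5 (-0.15) departed by 1450 and 1191 on the intensity scale.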

How the data were processed

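Total RNA of mammary gland was pooled from 5 mice per group and hybridised to 1 Affymetrix mouse array per group, per the labels' protocols. The authors deposited 1 intensity per probe set and array, on a linear scale with every array at one trimmed mean. The summarisation software, detection calls and build are not given in the sources used here. Probe sets were named through the platform annotation, updated by gene ID to RefSeq symbols: 20393 had 1 symbol (20364 matched by ID), 691 had several and 1606 were not listed, and the last 2 kinds were left out. A gene was represented by its probe set with the highest mean. A floor was set at the 25th percentile, genes under the overall median on every array were left out, and log2 differences were taken (Python 3.11.15, pandas 2.3.3, numpy 2.4.6). The script was tested on simulated data. With 1 array per group there is no test, and the number of arrays limits the precision.

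The genes named were Ppard, the 12 highest and 12 lowest by departure above the floor on all arrays, the 6 highest and 6 lowest bounds, up to 5 per pattern of 1 array standing apart, the 6 with the clearest opposite GW501516 differences, up to 4 per gene list with the greatest departures, and Pdk4, Angptl4, Plin2 and Cpt1a. Other list members are named for their role. Members and lists were chosen with earlier results of these data known. The alternatives tried were 2 other scalings (quantile normalization and one common median), 2 other floors (the 40th percentile, 71.1, and 1), no filter, a stricter filter (all 4 arrays at or above that median), the mean over a gene's probe sets, and no probe sets with names ending in _x_at or _s_at.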

Additional observations from a re-analysis of the deposited data

Results flagged for a closer look

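For 18 of the 7836 genes kept, the GW501516 difference pointed in opposite directions in the 2 genotypes, by at least 2-fold in each. With 1 array per group the difference between the genotypes was not tested. Upward in transgenic mice and downward in wild type were Scnn1g (departure 4.32), Mmd2 (4.22), Greb1 (at least 4.16), Aoc1 (at least 3.91), Ngfr (3.42), Dmbt1 (at least 3.22), Sprr1a (at least 3.18), Nnat (2.91) and Akr1c18 (2.51). The bounds depended on the processing: at the lowest among the alternatives Greb1 was at 1.08, Aoc1 at 2.12, Dmbt1 at 1.52 and Sprr1a at 1.39. Mmd2, a gene of the progestin and adipoQ receptor family, read 760.8, 74.2, 95.2 and 172.7, and its other probe set departed by 6.09. Ngfr, the low-affinity neurotrophin receptor, read 614.9, 51.6, 152.7 and 137.5, and Nnat, the imprinted neuronatin, 923.9, 173.3, 366.8 and 517. In all the genes of this upward group except Scnn1g, the wild-type chow array was the highest and the transgenic chow array the lowest. On agonist the genotypes lay within 1.5-fold of each other for Ngfr, Dmbt1, Sprr1a, Nnat and Akr1c18, and further apart for Mmd2, Greb1, Aoc1 and Scnn1g. For those within 1.5-fold the departure is mostly the gap between genotypes on chow.

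Downward in transgenic mice and upward in wild type were Elovl3 (-5.15), Fcgbp (-4.48), Clca3a2 (-4.18), Shisa2 (-3.85), Igha (-3.44), Fos (-2.92), Ccn2 (-2.46), Slc2a5 (-2.21) and Cdh1 (-2.17). Shisa2, a modulator of WNT and FGF receptor maturation, read 62.9, 835.4, 451.3 and 415.9, with -4.36 in its other probe set. Slc2a5, the fructose transporter, read 86.6, 104, 173.8 and 45.2, and Ccn2, a matricellular growth factor, 582.7, 2041, 1249 and 796. The transgenic chow array was the highest for Elovl3, Shisa2, Igha, Fos, Ccn2 and Cdh1, and wild type on GW501516 for Fcgbp, Clca3a2 and Slc2a5. On agonist the genotypes lay within 1.5-fold of each other for Shisa2, Fos and Cdh1, and further apart for the rest. The departures of all 18 genes include the transgenic chow array, whose BioB spike and Gapdh were low, and the part of that array was not tested.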

How the results depend on the processing

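A departure needs all 4 arrays, so no array could be left out, and no paired analysis was possible because each group has 1 array. Of the named genes' values under the 8 alternatives, 1318 stayed on their side of 2-fold, and kept their direction where the main departure reached 2-fold. For smaller departures a change of direction was not counted, and Alas2 moved from -0.084 to 0.0042 with one common median. Another 21 kept the direction but no longer reached 2-fold, and 3 (Ppargc1a, Idi1 and Cpt1a, with the mean over probe sets) reached it. Mtch2 turned to 0.20 without the _x_at and _s_at probe sets. Without a filter on low values there were 533 higher and 627 lower genes, 286 set apart by 1 array and 112 by the transgenic chow array. With the stricter filter, which tests fewer genes, these counts were 175, 195, 65 and 34, and the other alternatives kept them within 1.5 times. The median of PPAR target genes turned to -0.14 with quantile normalization, -0.0093 without the filter, -0.049 with the mean over probe sets and -0.043 without _x_at and _s_at probe sets. That of mitochondrial fatty acid oxidation turned to -0.14, -0.13 with the mean and -0.026 without those probe sets. PPAR receptors and partners turned to 0.034 with one common median and 0.060 with the stricter filter, interferon response genes to -0.020 with the stricter filter, ribosomal protein genes to -0.046 with quantile normalization, and the 1 erythroid gene to 0.0042 with one common median. The T cell median was 0.46 with the stricter filter. The salivary median was -1.90 with the floor at the 40th percentile, -2.83 without the filter, -0.48 with the stricter filter and -4.30 with the mean. The cause was not tested. The median of hormone response and paracrine genes was 0 without the filter, against -0.48. All other list medians kept their direction and moved by less than 0.54 (log2). Signal near the floor limits the genes with bounds or no departure.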
